A study of Mus musculus with 20 samples.

Results

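CMV Zeb2os was set against CMV control in the heart apex of mice, in 10 of the series' 20 RNA samples. The 10 samples were chosen by their labelled groups alone. The CMV Zeb2os group held 5 mice, of which 1 was male and 4 were female, and the CMV control group held 5 mice, 2 male and 3 female. All were uninjured, 28 days old after birth and of the wild-type FVB/NRj strain, and had received AAV9, an adeno-associated virus much used to carry genes into the heart, by retro-orbital injection. In the Zeb2os group the vector expressed Zeb2os from the CMV promoter, a viral promoter active in most cell types; in which cells the vector's Zeb2os was made was not measured. The sources used here do not give the cargo of the control vector, the vector dose or the time from injection to collection. Beside these, the series holds 5 hTNNT2 Zeb2os and 5 hTNNT2 control mice of the same strain and age, given AAV9 with the promoter of cardiac troponin T, which acts in cardiomyocytes. Of the hTNNT2 Zeb2os mice 3 were male, and of the hTNNT2 control mice 0. No mouse was shared between the CMV and the hTNNT2 comparison.

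Zeb2os is a long noncoding RNA read from the strand opposite Zeb2. Zeb2 encodes a zinc-finger transcription factor that binds Smad proteins, represses epithelial genes such as Cdh1 and takes part in the switch of cells toward a mesenchymal state. In heart muscle, injury can bring back immature traits, a process called dedifferentiation, and the title of the series names Zeb2os as acting on both. The comparison asks which RNAs of the uninjured apex differ when Zeb2os is supplied by a vector without restriction to cardiomyocytes.

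The values are those of the authors' own DESeq2 comparison, with no value per mouse. For each gene it holds the mean normalised count over the 10 libraries, the log2 fold change of CMV Zeb2os over CMV control with its standard error (SE), a p-value, and a p-value adjusted over all genes. A positive log2 fold change means higher in CMV Zeb2os mice. Of 26214 genes listed, 21318 had a p-value, 4889 stood at a mean of 0 and 7 had a statistic but no p-value. A gene counts as changed where the adjusted p was under 0.05, and an unadjusted p under 0.05 is used only to count and sort genes. Mean counts are not corrected for gene length, so levels are not compared between genes. All 12 cardiomyocyte markers, among them the giant sarcomere protein titin (Ttn) and the heavy chain Myh6, were detected, with mean counts of 34725 or more in the authors' deposited table. Markers of other heart cells were detected too, with means from 630.8 for the 14 endothelial markers and from 483 for the 12 fibroblast markers in the authors' deposited table. In such bulk RNA, fewer cells of a type and less RNA per cell cannot be told apart.

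The deposited fold changes are not plain ratios of group means, and genes of the Y chromosome show it. The Y-linked genes Ddx3y, Eif2s3y, Uty and Kdm5d had mean counts of 2102, 987, 874 and 494 in the authors' deposited table. Although 1 of 5 CMV Zeb2os mice and 2 of 5 CMV control mice were male, the authors' deposited table put their log2 fold changes at -0.0033 (SE 0.0094), -0.0024 (SE 0.0075), -0.0023 (SE 0.0076) and -0.0018 (SE 0.0061). With hTNNT2, where 3 of 5 Zeb2os mice and 0 of 5 control mice were male, the same genes stood at 0.018, 0.019, 0.018 and 0.013 in the authors' deposited table. Values near 0 on this scale therefore do not limit a change in counts, even for well counted genes, and every fold change and interval here holds on the deposited scale only. How the fold changes were estimated is not stated.

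Zeb2os lies on chromosome 2 of GRCm38 from 45110707 to 45114087, on the plus strand, within the span of Zeb2 (44983632 to 45117395, minus strand). Its transcript Zeb2os-201 in GENCODE M21 has 3 exons and 1736 bases. Of these, 1103 bases lie outside the exons of Zeb2 and 633 inside them. The sources used here do not give the strand setting of the counting, so reads of the shared bases cannot be assigned to one of the genes. Whether the vector carried this isoform is not stated. The stretch below is shown because it belongs to an annotated transcript of the gene whose RNA rose and lies wholly outside Zeb2 exons. It covers bases 1158 to 1357 of Zeb2os-201, at chr2:45113509-45113708 on the plus strand of GRCm38.
Zeb2os: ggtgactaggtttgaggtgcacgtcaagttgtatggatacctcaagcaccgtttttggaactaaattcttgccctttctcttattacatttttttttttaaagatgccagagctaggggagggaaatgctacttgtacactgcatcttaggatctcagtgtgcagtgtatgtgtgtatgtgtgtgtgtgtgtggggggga

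A single gene changed in CMV Zeb2os hearts, and it was Zeb2os itself. The rise of Zeb2os was 3.66 (SE 0.071) in log2 fold change at a mean count of 4138, with an adjusted p listed as 0 in the authors' deposited table. That is 1 higher gene of 21318, or 0.00469% of the genes tested, with 0 lower genes by the authors' DESeq2 test. By the weaker criterion of an unadjusted p under 0.05, 357 genes (1.67%) were counted in the authors' deposited table. Of these, 141 were higher (0.661%) and 216 lower (1.01%). Where no gene differs and p-values are spread evenly, a share of 0.05 lies under that cut, so 357 genes are fewer than that. With that p under 0.01 the lower side was again longer, with 16 higher and 48 lower genes in the authors' deposited table. These too are fewer than evenly spread p-values would give, and the longer lower side was not tested. On the deposited scale the fold changes of other genes were small. A log2 fold change beyond 0.2 in either direction was reached by 2 higher genes, Zeb2os included, and by 20 lower genes in the authors' deposited table. The median gene stood at -0.00016, with 10307 genes higher (48.3%) and 10697 lower (50.2%) in the authors' deposited table.

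**Figure D1:**
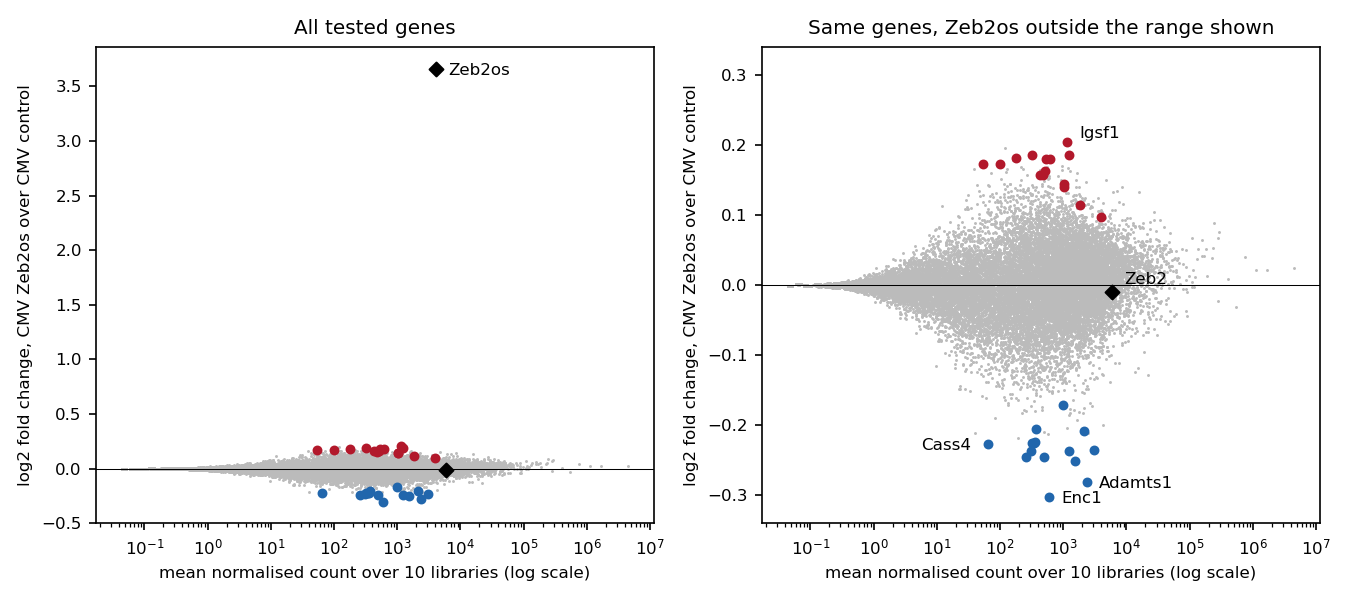
Log2 fold change of CMV Zeb2os over CMV control (vertical axis) against the mean normalised count on a log10 axis, 1 point per gene with a p-value. In colour are the 15 lower and the 15 higher genes described below, and in black Zeb2os and Zeb2. A second panel shows the same genes with Zeb2os outside its range. Zeb2os alone stands at 3.66, the next farthest gene from 0, Enc1, at -0.30, and the cloud narrows toward low counts.

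Zeb2, the gene on the opposite strand, stood at -0.0095 (SE 0.059) with a mean count of 5953 in the authors' deposited table (adjusted p = 1). Its 95% interval from the deposited SE ran from -0.13 to 0.11. A total of 9 tested genes, Zeb2os and Zeb2 included, lay within 2 Mb of Zeb2os on chromosome 2. The other 7 stood between -0.024 and 0.058 in the authors' deposited table, and 0 of them had an unadjusted p under 0.05. Among them Gtdc1, a glycosyltransferase-like gene, stood at 0.058 (SE 0.067) and Arhgap15, an inhibitor of the GTPase Rac, at 0.017 (SE 0.061) in the authors' deposited table. These were also the only 2 of the 7 whose mean count reached 50. In each of the 7 the log2 fold change was smaller than its SE.

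The lower side was led by Enc1, an actin-binding kelch protein. Enc1 stood at -0.30 (SE 0.066) with a mean count of 591 and an adjusted p of 0.0531 in the authors' deposited table, just over the threshold. Adamts1, a secreted metalloprotease that cuts matrix proteoglycans, followed at -0.28 (SE 0.069) with an adjusted p of 0.357 in the authors' deposited table. They head the 15 lower genes with the smallest p, which are described here with the 15 higher ones, Zeb2os aside. All 30 reached a mean count of 50 or more, and predicted genes were left out. The 15 lower genes stood between -0.30 and -0.17 and the 15 higher genes between 0.097 and 0.20 in the authors' deposited table. Apart from Enc1 and Adamts1, the adjusted p of each was 1.

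The 15 lower genes are given here by the known role of each. Errfi1, an inhibitor of the epidermal growth factor receptor, stood at -0.25 (SE 0.071) and Sik1, a salt-inducible kinase, at -0.24 (SE 0.071) in the authors' deposited table. Sgk1, a kinase induced by serum and glucocorticoids, stood at -0.21 (SE 0.063), and Apold1, an early response gene of blood vessel endothelium, at -0.24 (SE 0.071) in the authors' deposited table. None of these passed the adjusted test. Cass4, a scaffold of focal adhesions, stood at -0.23 (SE 0.064) and Bcar3, an adaptor that binds proteins of the same Cas family, at -0.21 (SE 0.065) in the authors' deposited table. Dll1, a ligand of Notch receptors, stood at -0.24 (SE 0.071) and Neurl3, a ubiquitin ligase of the Neuralized family, at -0.23 (SE 0.071) in the authors' deposited table. Runx1, a transcription factor re-expressed in injured heart muscle, lay at -0.22 (SE 0.071) in the authors' deposited table. No fixed list was tested among these genes. Slc25a25, a calcium-regulated carrier of adenine nucleotides in mitochondria, stood at -0.24 (SE 0.071), and Syn2, a synaptic vesicle protein, at -0.25 (SE 0.070) in the authors' deposited table. Mob3c, of the MOB family of kinase regulators, stood at -0.22 (SE 0.066), and Urb2, a factor of ribosome assembly, at -0.17 (SE 0.055) in the authors' deposited table.

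The 15 higher genes are given in the same way. Igsf1, a membrane glycoprotein of the immunoglobulin superfamily, stood highest at 0.20 (SE 0.071), followed by Smtnl2, a smoothelin-like protein, at 0.19 (SE 0.069) and Enpp6, a choline phosphodiesterase, at 0.19 (SE 0.071) in the authors' deposited table. Lrrc55, an auxiliary subunit of potassium channels, stood at 0.18, Bex3 at 0.18 and the zinc-finger gene Zfp52 at 0.18 in the authors' deposited table. These leading values lay close together. Impdh2, an enzyme of guanine nucleotide synthesis, stood at 0.16 (SE 0.061), Mrpl22, of the mitochondrial ribosome, at 0.16 (SE 0.063), and Lars, the leucyl-tRNA synthetase, at 0.097 (SE 0.038) in the authors' deposited table. Sec22c, of vesicle transport, stood at 0.16 (SE 0.060) and Stx17, a syntaxin of autophagosomes, at 0.11 (SE 0.043) in the authors' deposited table. The ubiquitin ligase genes Rnf145 and Asb16 stood at 0.14 and 0.17, and the kinase gene Dyrk1b at 0.14, in the authors' deposited table. In the authors' deposited table Gpr65, a proton-sensing receptor of immune cells, stood at 0.17 (SE 0.069). None of the 15 passed the adjusted test.

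**Figure D2:**
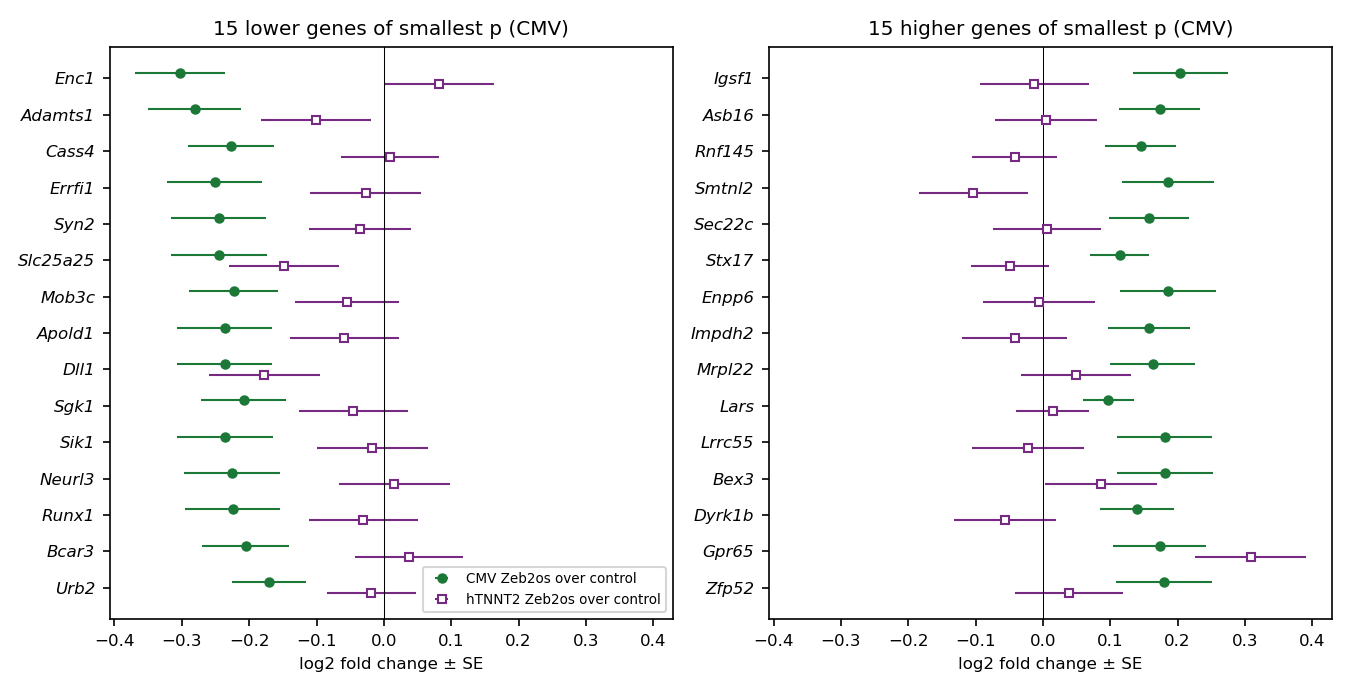
Log2 fold change with its SE for the 15 lower and the 15 higher genes with the smallest p, in the CMV comparison and beside it in the hTNNT2 comparison. In the CMV comparison the lower genes run between -0.30 and -0.17 and the higher ones between 0.097 and 0.20, while in the hTNNT2 comparison the same genes run between -0.18 and 0.31.

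The hTNNT2 comparison used other mice, given Zeb2os with a promoter that acts in cardiomyocytes, and the same genes are set beside it. Its groups also differed in sex, with 3 male Zeb2os mice and 0 male controls. The part of sex in the hTNNT2 values given here and below was not tested. For Zeb2os itself the log2 fold change was 3.66 (SE 0.071) with CMV and 4.53 (SE 0.083) with hTNNT2 in the authors' deposited tables. For hTNNT2 minus CMV the difference was 0.87 (SE 0.11), with an adjusted p of 4.02e-11 over 20754 genes tested in both. The mean counts of Zeb2os were 4138 with CMV and 43281 with hTNNT2 in the authors' deposited tables, and the part of fold change estimation in the difference was not tested. This was the 1 gene (0.00482%) whose fold change differed between the promoters at an adjusted p under 0.05. At an unadjusted p under 0.05, 550 genes (2.65%) differed. Enc1 was among these. Enc1 stood at -0.30 (SE 0.066) with CMV and 0.082 (SE 0.081) with hTNNT2 in the authors' deposited tables, a difference of 0.39 (SE 0.10) for hTNNT2 minus CMV. Smtnl2 stood at 0.19 with CMV and -0.10 (SE 0.081) with hTNNT2 in the authors' deposited tables, on opposite sides of 0. Gpr65 was on the same side in both, at 0.17 with CMV and 0.31 (SE 0.083) with hTNNT2 in the authors' deposited tables. Dll1 likewise stood at -0.24 with CMV and -0.18 (SE 0.082) with hTNNT2, and Slc25a25 at -0.24 and -0.15 (SE 0.082), in the authors' deposited tables.

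All lower and higher genes were followed in the same way. Of the 216 genes lower with CMV at an unadjusted p under 0.05, 127 (58.8%) were lower and 89 higher with hTNNT2 in the authors' deposited tables. Among all genes tested in both, 51.7% were lower with hTNNT2. Of the 140 higher genes other than Zeb2os, 69 (49.3%) were higher with hTNNT2 and 71 lower, where 47.4% of all genes were higher in the authors' deposited tables. With an unadjusted p under 0.05 on both sides, 8 genes were lower in both and 8 higher in both, while 5 were lower with CMV and higher with hTNNT2 and 1 was higher with CMV and lower with hTNNT2. By direction, the hTNNT2 comparison held 2.27% of genes higher and 1.64% lower at that p. Over 13183 genes whose mean count was at least 50 in both tables, the log2 fold changes had a Pearson r of 0.049 and a Spearman rho of 0.058. These are across genes, which are not independent.

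Immediate early genes are transcription factors and regulators induced within minutes by stimuli such as calcium, cyclic AMP or growth factors, before new protein is made. Of 30 members, 7 were higher and 23 lower with CMV Zeb2os, with a median log2 fold change of -0.090 in the authors' deposited table. The median of all tested genes was -0.00016. None passed the adjusted test, while 0 were higher and 7 lower at an unadjusted p under 0.05, against 0.661% and 1.01% of all genes. Nr4a1, an orphan nuclear receptor, stood at -0.14 (SE 0.044), and Fosl2, a partner of Jun proteins in the AP-1 factor, at -0.21 (SE 0.071) in the authors' deposited table. Btg2, an antiproliferative cofactor, stood at -0.19 (SE 0.065) and Klf4, a zinc-finger factor, at -0.18 (SE 0.070) in the authors' deposited table. The other 3 of the 7 were the related factor Klf2, Ier2 and Fosb, named after their values were seen, at -0.18, -0.15 and -0.089 in the authors' deposited table. The classical members Fos and Egr1, also picked after their values were seen, were lower too in the authors' deposited table, at -0.068 (SE 0.039) and -0.034 (SE 0.050). By the authors' DESeq2 test the unadjusted p was 0.079 for Fos and 0.50 for Egr1. Junb, likewise named afterwards, had a p of 0.071 by that test with a log2 fold change of -0.13 (SE 0.071). The smaller fold change of Fos on the deposited scale therefore does not show that Fos was less lowered than Junb. The 7 higher members, likewise named afterwards, were led by Gadd45g at 0.13 (SE 0.067) and included the matricellular genes Ccn1 and Ccn2, at 0.034 and 0.044 in the authors' deposited table. With hTNNT2, 9 members were higher and 21 lower, with a median of -0.035 in the authors' deposited table.

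**Figure D3:**
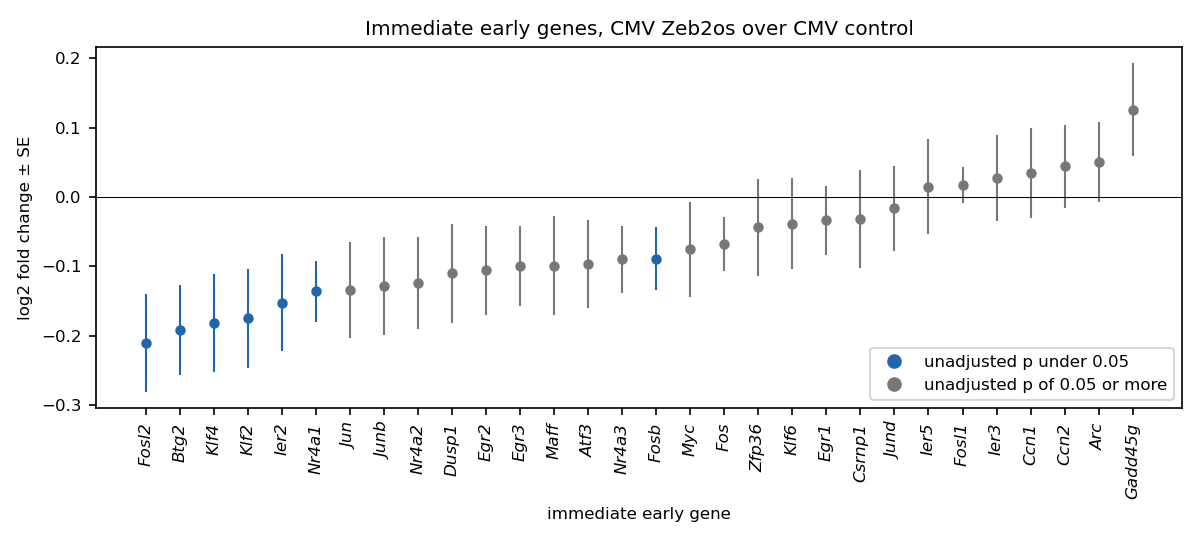
Log2 fold change of CMV Zeb2os over CMV control with its SE for the 30 immediate early genes, ordered by fold change. Of these, 23 lie below 0 and 7 above, between Fosl2 at -0.21 and Gadd45g at 0.13.

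Many immediate early genes respond to cyclic AMP through Creb, which binds the cyclic AMP response element TGACGTCA or its short form, TGACG on one strand and CGTCA on the other. The promoters of 23 of the 30 members were found in RefSeq on GRCm38.p6, as 32 windows from 250 bases before to 50 after a start site. The short form on either strand was present in 65.6% of these windows, against 26.1% of all 19736 windows. Counted by gene, 15 of the 23 held one in at least 1 window, and 29.4% of all 16074 genes with a window did. The full element, which contains a short form on each strand, was present in 9.38% of the member windows and 2.46% of all windows. The CArG box, the site of the serum response factor, was found on either strand in 15.6% of member windows and 1.47% of all windows, but in only 2 of the 23 genes, Egr2 and Zfp36, most of the windows being of Egr2. A match is a run of letters and not evidence that a protein binds there. The shares come from which genes are on the list, not from their fold changes, and so say nothing about the response to CMV Zeb2os. Ccn1, on the higher side, held a short form too. The promoters below are those of the members with the smallest p that held a short form, with the short forms in capitals. Nr4a1 (chr15:101266596-101266895, plus strand) has 4 short forms, which begin 233, 213, 69 and 40 bases before the start site. Btg2 (chr1:134079106-134079405, minus strand) has the full element 166 bases before the start site. Klf4 (chr4:55532426-55532725, minus strand) and Klf2 (chr8:72318812-72319111, plus strand) have 1 short form each, at 232 and 241 bases before the start site. Fosl2, with the largest fold change of the list, had none of these letters in its window.
Nr4a1: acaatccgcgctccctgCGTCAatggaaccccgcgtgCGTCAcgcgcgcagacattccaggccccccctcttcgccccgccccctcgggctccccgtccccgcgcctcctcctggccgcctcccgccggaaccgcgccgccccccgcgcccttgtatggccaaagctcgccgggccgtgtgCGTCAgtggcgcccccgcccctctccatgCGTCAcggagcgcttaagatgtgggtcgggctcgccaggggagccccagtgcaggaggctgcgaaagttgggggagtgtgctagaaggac
Btg2: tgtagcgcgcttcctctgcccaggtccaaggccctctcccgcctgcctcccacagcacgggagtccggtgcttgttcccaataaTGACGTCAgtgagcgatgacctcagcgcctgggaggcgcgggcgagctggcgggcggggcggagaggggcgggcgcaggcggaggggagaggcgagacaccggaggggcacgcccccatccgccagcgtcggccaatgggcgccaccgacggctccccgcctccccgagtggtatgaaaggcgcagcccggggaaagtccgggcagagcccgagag
Klf4: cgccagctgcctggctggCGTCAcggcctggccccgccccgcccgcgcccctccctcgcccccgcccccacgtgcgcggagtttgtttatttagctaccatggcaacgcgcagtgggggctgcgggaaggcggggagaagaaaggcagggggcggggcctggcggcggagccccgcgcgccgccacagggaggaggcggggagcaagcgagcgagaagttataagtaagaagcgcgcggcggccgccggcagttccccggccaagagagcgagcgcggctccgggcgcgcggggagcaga
Klf2: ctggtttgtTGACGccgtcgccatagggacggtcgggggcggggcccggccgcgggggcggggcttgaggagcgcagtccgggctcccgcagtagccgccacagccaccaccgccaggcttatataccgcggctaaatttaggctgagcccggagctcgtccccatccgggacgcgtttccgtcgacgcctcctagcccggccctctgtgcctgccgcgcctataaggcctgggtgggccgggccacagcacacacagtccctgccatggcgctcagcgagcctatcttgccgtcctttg

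Other response programmes were followed beside them. Of 16 glucocorticoid target genes, 8 were higher and 8 lower, and the 2 at an unadjusted p under 0.05 were Errfi1 and Sgk1, both lower in the authors' deposited table and both already among the 15 lower genes. Over all genes that share was 1.01% lower. The 16 heat shock proteins also divided into 8 higher and 8 lower, with the Hsp70 cochaperone Dnajb1 at -0.15 (SE 0.071) in the authors' deposited table. That even split depended on the mean count. With the median of genes of like mean count taken off, 5 were higher and 11 lower, with a median of -0.030. With hTNNT2, 1 was higher and 15 were lower in the authors' deposited table. Of 19 clock genes, 13 were higher and 6 lower with a median of 0.041, while Bhlhe40, a repressor in the clock that also responds to many stimuli, lay at -0.20 (SE 0.069) in the authors' deposited table. Genes of the unfolded protein response had 13 members higher and 4 lower, with a median of 0.023 in the authors' deposited table. The members with the smallest p were Sel1l at 0.082 (SE 0.052) and Atf4, a factor of the stress response, at -0.090 (SE 0.059). No member of these lists passed the adjusted test.

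Genes of blood vessels lay mostly below 0. The Notch pathway, in which ligands on one cell activate receptors on the next and which shapes arteries and mural cells, had 3 of 15 members higher and 12 lower, with a median of -0.038 in the authors' deposited table. Beside the ligand Dll1, the Notch target Heyl, a repressor expressed in mural cells, was listed at -0.15 (SE 0.069) by the authors' deposited table. These were the 2 members at an unadjusted p under 0.05, where 1.01% of all genes were lower. Markers of smooth muscle cells and pericytes had 4 of 15 members higher and 11 lower, with a median of -0.049 in the authors' deposited table. Mylk, the kinase that starts smooth muscle contraction and the 1 marker at an unadjusted p under 0.05 with CMV, stood at -0.13 (SE 0.064) with CMV and 0.17 (SE 0.082) with hTNNT2 in the authors' deposited tables. For hTNNT2 minus CMV the difference was 0.30 (SE 0.10), at an unadjusted p of 0.00385 that did not pass after adjustment. Mylk was taken for its small p with CMV, which by itself favours a difference. With hTNNT2 the same 15 markers were 13 higher and 2 lower, with a median of 0.099 in the authors' deposited table. Endothelial markers had 4 of 14 members higher and 10 lower, with a median of -0.030 in the authors' deposited table. Kdr, the main receptor of vascular endothelial growth factor, had the smallest p and stood at -0.13 (SE 0.066). Egfl7, secreted by endothelium, was next by p at -0.10 (SE 0.071) in the authors' deposited table. Among the 4 higher endothelial markers, Ly6c1 stood farthest from 0 at 0.067 (SE 0.068) in the authors' deposited table. Of 6 lymphatic endothelial markers 1 was higher and 5 were lower, with Prox1, the factor that sets lymphatic identity, at -0.071 (SE 0.060) in the authors' deposited table. None of these markers passed the adjusted test.

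Genes of energy supply lay mostly above 0, each by a small amount. Nuclear genes for subunits of respiratory complex I had 34 of 37 members higher and 2 lower, with a median of 0.035 in the authors' deposited table. For complexes II to V, 36 of 40 were higher and 4 lower, with a median of 0.045 in the authors' deposited table. All 15 genes of the citric acid cycle were higher, between 0.0039 and 0.083, with a median of 0.035 in the authors' deposited table. Not 1 of these genes reached an unadjusted p under 0.05. Those with the smallest p were Ndufb4 and Ndufs4 of complex I, at 0.093 and 0.075, Atp5h of the ATP synthase, at 0.081 (SE 0.053), and Idh3g, of the NAD-dependent isocitrate dehydrogenase, at 0.083 (SE 0.052) in the authors' deposited table. Genes of fatty acid oxidation had 22 of 28 members higher with a median of 0.025 in the authors' deposited table. Genes of the sarcomere had 21 of 25 members higher and 4 lower with a median of 0.039, and cardiomyocyte markers 11 of 12 higher with a median of 0.045, in the authors' deposited table. Myl2, the regulatory light chain of ventricular myosin, stood at 0.089 (SE 0.059) and Lmod2, which lengthens thin filaments, at 0.092 (SE 0.063) in the authors' deposited table. With hTNNT2, 2 sarcomere genes were higher and 23 lower, with a median of -0.051 in the authors' deposited table. Genes of calcium handling and ion channels had 19 of 28 members higher, among them the pacemaker channel Hcn4 at 0.16 (SE 0.071) in the authors' deposited table. Proteasome subunits had 24 of 25 members higher with a median of 0.030, and ribosomal proteins 32 of 40 higher with a median of 0.024, in the authors' deposited table.

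**Figure D4:**
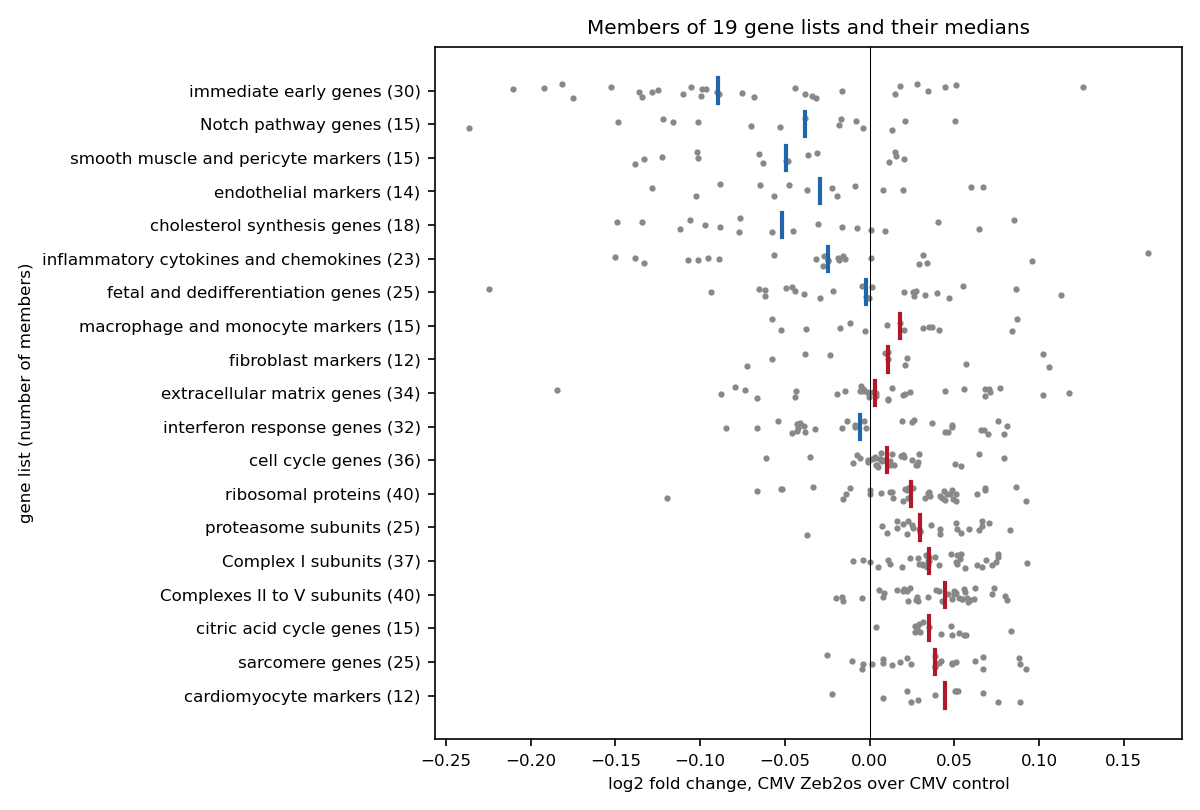
Log2 fold change of CMV Zeb2os over CMV control for members of 19 gene lists, 1 point per member. A bar marks the median of each list, and the number of members tested is given. Among these lists, immediate early genes have the lowest median at -0.090, and the median of sarcomere genes stands at 0.039.

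The share of higher genes moved with the mean count across all genes, and most genes of energy supply and contraction have high counts. In the band from 50 to 200 counts, 43.2% were higher, against 70.0% of the 1427 genes at 5000 counts or more in the authors' deposited table. With hTNNT2 the course was the other way, with 52.4% and 37.2% higher in the same bands of the authors' deposited table. With the median of genes of like mean count taken off, sarcomere genes had 16 of 25 members higher and a median of 0.017. Citric acid cycle genes had 14 of 15 higher, with a median of 0.013 in place of 0.035. Medians were also lower than before for complex I (0.021), complexes II to V (0.023) and cardiomyocyte markers (0.023). Immediate early genes had a median of -0.082. The lists of fatty acid oxidation and calcium handling then lay close to even, with 16 of 28 members higher and a median of 0.0047, and 15 of 28 higher and a median of 0.0045. The part of this course in the lists was not tested further. The deposited SE also moved with the count. Its median was 0.0054 at a mean count under 1, against 0.068 at 200 to 1000, and no gene had an SE over 0.0713 in the authors' deposited table. A ratio of counts has an SE that grows at low counts.

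**Figure D5:**
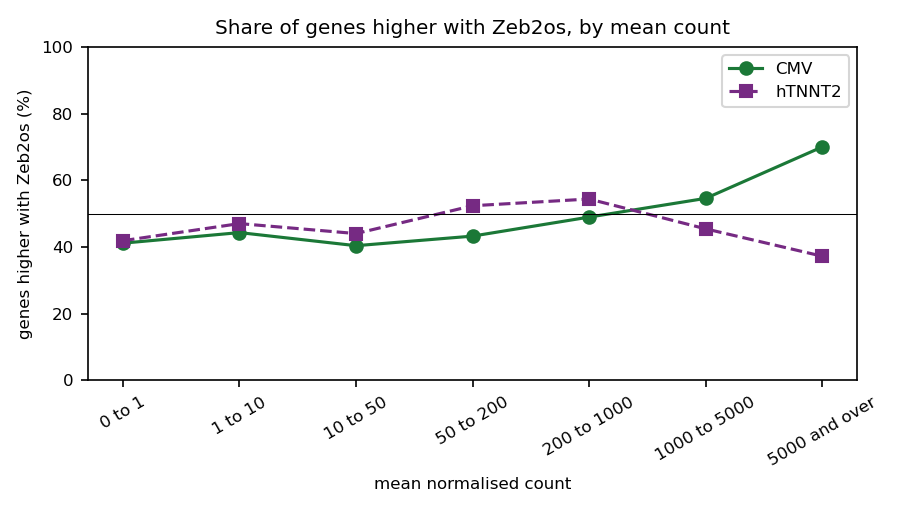
Percentage of genes with a positive log2 fold change in bands of mean normalised count, for the CMV comparison and the hTNNT2 comparison. With CMV the share is 43.2% at 50 to 200 and 70.0% from 5000 up, whereas with hTNNT2 it is 52.4% and 37.2% in the same bands.

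Inflammation and immune cell genes were followed list by list. Of 23 cytokine and chemokine genes, 6 were higher and 17 lower with CMV Zeb2os, with a median of -0.025 in the authors' deposited table. For the 9 members whose mean count reached 50 the median was -0.096. Il1b, an early inflammatory cytokine, stood at -0.15 (SE 0.045), and Ccl2, a chemokine that draws monocytes, at -0.14 (SE 0.058) in the authors' deposited table. Vcam1, an adhesion molecule on activated endothelium, was on the higher side in both comparisons, at 0.16 (SE 0.069) with CMV and 0.18 (SE 0.082) with hTNNT2 in the authors' deposited tables. Macrophage and monocyte markers had 9 of 15 members higher with a median of 0.018 with CMV, against a median of 0.14 with hTNNT2, in the authors' deposited tables. Interferon response genes had 14 of 32 members higher and a median of -0.0059, with 0 members at an unadjusted p under 0.05 in the authors' deposited table. Among markers of T and NK cells, 11 of 13 were higher with a median of 0.032, at a median mean count of 14.6 in the authors' deposited table. All 7 erythroid and platelet markers with a p-value were lower, with a median of -0.035 in the authors' deposited table.

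Lists tied to Zeb2 itself are given against a background of 1.67% of all genes at an unadjusted p under 0.05, so a count of 0 says little about lists of this size. Of 14 mesenchymal transition factors, 6 were higher and 8 lower, with a median of -0.014 and 0 members at an unadjusted p under 0.05 in the authors' deposited table. Only 10 of the 14 reached a mean count of 50. Cdh1, the epithelial cadherin that Zeb2 represses, lay at -0.028 (SE 0.018) in the authors' deposited table. Its SE was as low as the median SE of genes with mean counts of 1 to 10, also 0.018, so its value near 0 does not limit a change. Smad proteins and the TGF-beta pathway divided into 15 higher and 16 lower of 31, again with 0 at an unadjusted p under 0.05 in the authors' deposited table. Genes of the fetal and dedifferentiated state had 11 of 25 members higher and 14 lower, and Runx1 was the 1 member at an unadjusted p under 0.05 in the authors' deposited table. Extracellular matrix genes had 18 of 34 members higher with a median of 0.0030 with CMV, against 32 higher and a median of 0.095 with hTNNT2, in the authors' deposited tables. Thbs1, thrombospondin 1, was the 1 matrix gene at an unadjusted p under 0.05 with CMV, at -0.18 (SE 0.071) in the authors' deposited table.

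The CMV groups differed in sex by 1 mouse, which no fit could take into account here. The X-linked genes Eif2s3x and Ddx3x, which escape X inactivation, were listed at 0.080 (SE 0.070) and 0.042 (SE 0.071) by the authors' deposited table. All 4 such X-linked genes followed were higher in the CMV Zeb2os group, which held fewer males, and the 4 Y-linked genes given above lay slightly below 0. The part of sex in the results above was not tested.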

How the data were processed

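Ribosomal RNA was removed from total RNA of the apex, per the labels' protocols. The authors used Trim Galore, the builds GRCm38 and mm10, and DESeq2, per the submitters' processing notes. The sources used here do not give the aligner, the counter, its strand setting, tool versions or library totals. Per the file headers, the authors deposited for each gene a mean normalised count (a signal that is never negative), a fold change with its SE on the log2 scale, a Wald statistic (a score), a p-value and an adjusted p-value. In sign, the deposited statistic was opposite to the fold change in all 21004 tested genes whose fold change was not 0, and its sign was turned. How the authors estimated fold changes, and whether they were shrunk, is not stated. The tables hold no spread between single mice beyond the SE.

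The gene lists, the named genes and the tests were chosen with earlier results of these data known, so lists are described by counts and medians and got no test. Named genes were Zeb2os, Zeb2, the 15 higher and 15 lower genes of smallest p with a mean count of 50 or more, up to 4 members of each list and the genes within 2 Mb of Zeb2os. The difference between promoters was hTNNT2 minus CMV, over the root of the summed squared SEs, with a 2-sided normal p adjusted by the Benjamini-Hochberg method over 20754 genes. That step was tested on simulated data. Values of some named list members are not reported here. Of the listed gene entries, 860 of 876 matched the tables. Gene positions came from GENCODE M21 and promoters from RefSeq on GRCm38.p6. Alternatives were mean count filters of 10 and 50, other thresholds, centring, an empirical null and, for list medians, removal of the trend across mean counts. Python 3.11.15, numpy 2.4.6, pandas 2.3.3, scipy 1.17.1 and matplotlib 3.10.9 were used.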

Additional observations from a re-analysis of the deposited data

Results flagged for a closer look

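The log2 fold change of Zeb2os itself stood apart because it differed between the promoters by a test of the difference. In the authors' deposited tables it was 3.66 (SE 0.071) with CMV and 4.53 (SE 0.083) with hTNNT2. The hTNNT2 value minus the CMV value was 0.87 (SE 0.11), with an adjusted p of 4.02e-11. Mean counts were 4138 with CMV and 43281 with hTNNT2 in the authors' deposited tables, which were normalised separately and whose mean counts summed to 44295571 and 51284505. The fold changes hold on the deposited scale, and whether the difference depends on how they were estimated was not tested. Vector dose and vector genomes per heart were not used here, so their part was not tested.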

How the results depend on the processing

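The count of 0 lower genes depended on the choice of threshold and genes, while 1 higher gene, Zeb2os, was called under each alternative tried. Enc1 alone was called lower in 4 of these, namely 1 gene at an adjusted p threshold of 0.1, 1 gene with mean counts of 10 or more, 1 gene with mean counts of 50 or more, and 1 gene with fold changes centred on the median gene. Its adjusted p was 0.0391 and 0.0329 with the filters of 10 and 50 counts, and 0.0439 with centring. The first 3 follow from fewer genes tested or a looser threshold. The empirical null, which scales the statistics by their robust spread of 0.81, gave 12 lower genes, among them Enc1, Adamts1, Cass4, Errfi1 and Dll1. Of 140 list medians recomputed under the alternatives, 137 moved by less than the members' median SE. That SE is of single genes and larger than most list medians, so the count of 137 does not show that medians hold. Centring moved each median by the same 0.0026. The other 3 were cytokines and chemokines, mast cell markers and adipocyte markers, each over members with mean counts of 50 or more. The first stood at -0.096 over 9 such members, and the others had 1 such member each. Of the medians at least 0.02 from 0, 0 changed side. With the trend across mean counts removed, medians stood on the other side of 0 for glycolysis genes (-0.0016), extracellular matrix genes (-0.013), fibroblast markers (-0.0061) and MHC genes (0.0037), so no direction is given for these lists. The difference between promoters gave 1 gene throughout. No paired analysis was possible because the groups share no replicate numbers and no values per mouse were used here. For the same reason the alternatives that leave out each replicate in turn were not run, so whether 1 mouse decides a value is unknown. Depth per library is unknown too, and the low SE of weakly counted genes, and of Y-linked genes at higher counts, limits what deposited fold changes show.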

Other observations

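Some gene groups stood apart from those above, as values with no test. Cholesterol synthesis genes had 5 of 18 members higher and 13 lower with CMV Zeb2os, with a median log2 fold change of -0.051 in the authors' deposited table. Srebf2, the factor that switches on this pathway, stood at -0.15 in the authors' deposited table. It had an unadjusted p under 0.05 and did not pass the adjusted test. Cell cycle genes had 29 of 36 members higher with a median of 0.010 with CMV, and a median of 0.060 with hTNNT2, in the authors' deposited tables. Of 7 mesothelial and epicardial markers, 1 was higher and 6 were lower, and Wt1, a factor of the epicardium, stood at -0.15 in the authors' deposited table. By gene type, 1.78% of 17718 protein-coding genes and 1.24% of 2496 long noncoding RNA genes had an unadjusted p under 0.05 in the authors' deposited table. That share moves with the mean count: of 2466 genes with a mean under 1, 0 were higher and 0 lower at that p. The types were not matched by mean count, so the 2 shares are not compared.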
